A study of Mus musculus with 20 samples.

Results

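The 42 genes described here act in the cell cycle and in DNA replication. They were taken by symbol from a table of 54309 genes measured in bulk RNA of SCCVII tumors, a mouse model of head and neck squamous carcinoma. Of the 42, 18 belong to the start of replication and S phase, 23 to mitosis and cell division, and 1 (Ccnd1) to G1. All 42 had enough counts to be tested, and the lowest estimated count of any of them in any library was 443. They were listed for what they do, with earlier results of these data known.

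SCCVII cells were injected under the skin of immunocompetent C3H/HeOuJ mice, and 10 groups of 2 tumor libraries, A and B, were sequenced. The single agents were APG-157 (a drug from turmeric that contains curcumin, mixed into the food), anti-PD-1 and anti-CTLA-4 (checkpoint antibodies injected into the peritoneum) and anti-CD8, which depletes CD8+ T cells. Of the mixtures, APG-157 + anti-PD-1 keeps its name, APG-157 + anti-CTLA-4 is called the combination, anti-PD-1 + anti-CTLA-4 the antibody pair, and all 3 agents together the triple treatment. The depleted combination received anti-CD8 on top of the combination. Control mice were injected with saline. Every tumor came from the same transplanted line. The study shows its depletion work under a workflow of its own, so depletion and experiment cannot be told apart in comparisons with the other groups. Neither labels nor methods say that A and B of a group were separate tumors, so p-values here measure only the spread between these libraries, which may be technical. The comparisons ask whether drug, antibodies or the loss of CD8+ T cells went with a change in the transcripts of dividing cells.

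A cell that commits to division first makes D type cyclins, of which Ccnd1 encodes cyclin D1, the partner of Cdk4 and Cdk6. These kinases phosphorylate the retinoblastoma protein and release E2F factors, which switch on the genes of S phase. Among the 18 S phase genes, Mcm2, Mcm3, Mcm4, Mcm5, Mcm6 and Mcm7 encode the subunits of the replicative helicase, Cdc6 and Cdt1 load it onto origins, and Gins2 encodes a subunit of a complex that activates it. Pcna encodes the sliding clamp of the polymerases, while Rrm1, Rrm2, Tyms and Tk1 supply deoxynucleotides. Ccne1 and Ccne2 encode the E type cyclins, E2f1 an activating E2F factor and E2f8 a repressing one. The mitosis genes are switched on later, through factors that include Foxm1, itself on the list. Ccna2, Ccnb1, Ccnb2 and Cdk1 encode cyclins and the kinase that drive entry into mitosis. Plk1, Aurka, Aurkb, Birc5, Bub1, Bub1b, Ttk and Cdc20 act in the spindle checkpoint, in chromosome segregation or in the exit from mitosis. Kif11, Kif20a, Kif23, Tpx2, Nusap1, Cenpa, Cenpe and Cenpf belong to the spindle, the midzone or the centromere. Top2a untangles sister chromosomes, and Mki67 encodes the antigen by which pathologists score dividing cells.

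Promoters are shown because S phase genes and mitosis genes are read by different factors. RefSeq promoters on GRCm38.p6, each of 250 bases before and 50 after the start, matched 33 of the 42 genes with 34 promoters. The search, on both strands, was for CCAAT or ATTGG, the box bound by NF-Y, for TTTGAA or TTCAAA, the cell cycle homology region of mitotic promoters, and for the E2F strings TTTGGCGC, TTTCGCGC, GCGCCAAA and GCGCGAAA. Strings may share bases, as TTTGGCGC and GCGCGAAA do in the first capitals of Mcm6. The 150 bases before the start are given, along the strand of the gene, for promoters that show the contrast, with these strings in capitals.
Mki67, chr7:135716380-135716529, minus strand: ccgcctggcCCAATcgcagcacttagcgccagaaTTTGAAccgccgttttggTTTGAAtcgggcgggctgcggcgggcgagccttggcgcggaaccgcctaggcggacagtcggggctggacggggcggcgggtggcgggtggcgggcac
Top2a, chr11:99024190-99024339, minus strand: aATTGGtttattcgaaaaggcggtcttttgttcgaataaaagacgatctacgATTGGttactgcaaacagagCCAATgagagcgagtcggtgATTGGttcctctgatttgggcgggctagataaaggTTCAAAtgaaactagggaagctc
Cdk1, chr10:69352913-69353062, minus strand: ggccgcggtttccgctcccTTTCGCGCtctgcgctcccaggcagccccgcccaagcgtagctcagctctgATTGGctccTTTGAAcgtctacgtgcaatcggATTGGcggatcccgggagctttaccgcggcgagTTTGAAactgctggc
Mcm5, chr8:75109359-75109508, plus strand: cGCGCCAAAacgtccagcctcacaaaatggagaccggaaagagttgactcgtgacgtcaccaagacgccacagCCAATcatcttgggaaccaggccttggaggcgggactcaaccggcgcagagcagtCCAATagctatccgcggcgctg
Mcm6, chr1:128359706-128359855, minus strand: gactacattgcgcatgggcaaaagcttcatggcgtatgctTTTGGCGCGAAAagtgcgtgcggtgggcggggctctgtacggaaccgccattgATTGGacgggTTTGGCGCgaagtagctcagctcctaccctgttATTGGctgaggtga

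In these stretches the Mki67 promoter held 1 CCAAT box and 2 TTTGAA strings. The Top2a promoter held 4 NF-Y boxes and a TTCAAA that began 23 bases before the start, while that of Cdk1 held all 3 motifs, its last TTTGAA beginning 15 bases before the start. The Mcm5 and Mcm6 promoters held NF-Y boxes and E2F strings without TTTGAA or TTCAAA. Not every promoter showed this contrast. In the same stretch, not printed here, those of Ccnb1, Ccnb2 and Plk1 held CCAAT boxes without TTTGAA or TTCAAA. That of Mcm3 held no E2F string, and that of Mcm2 held TTTGAA without an E2F string. Over whole windows, TTTGAA or TTCAAA stood in 13 of 18 promoters of mitosis genes (72.2%), in 2 of 16 of S phase genes (12.5%, Mcm2 and E2f8) and in 17.9% of all 32851 promoters. With only the bases before the start, 6 of 18 mitosis promoters (33.3%) and 16.0% of all promoters held it. E2F strings stood in 5 of 16 S phase promoters (Mcm3, Mcm5, Mcm6, Mcm7 and Cdt1), in 1 of 18 mitosis promoters (Cdk1) and in 0.813% of all promoters. With only the bases before the start they stood in 2 of 16 S phase promoters (12.5%), in 1 of 18 mitosis promoters and in 0.655% of all promoters. CCAAT boxes stood in 16 of 18 mitosis promoters, in 10 of 16 S phase promoters and in 37.4% of all promoters. A match describes letters in a window and was not tested as a bound site.

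Library totals were 43920525 to 72081922 estimated counts. Cd8a, the target of the depletion, had 0.144 and 0.121 CPM in anti-CD8 and 0.26 and 0.381 CPM in the depleted combination, against 5.66 and 6.67 CPM in control (CPM, counts scaled to library size). Krt14, a keratin of squamous epithelium, was under 1 CPM in 19 of 20 libraries, although the 13 epithelial markers tested summed to 1154 to 2381 CPM in the 20 libraries. That sum was uneven over the markers. Their mean log2(CPM + 0.1) was 1.02 to 4.57, and in anti-CTLA-4 3 of the 13 had 0 counts in both libraries. Library B of the depleted combination stood apart: all 11 adipocyte markers tested were highest there, with a summed 4767 CPM against 25.9 to 137 CPM in the other 19, and Adipoq, a hormone of fat cells, had 355 CPM there and at most 3.03 CPM elsewhere. In that library 41 of the 42 genes had their lowest level, and its calls are given with and without it. The 16 skeletal muscle markers summed to 2584 CPM in anti-CTLA-4 B, 5484 CPM in APG-157 + anti-PD-1 A, 6914 CPM in triple treatment A and 1386 CPM in anti-CD8 A, and to 25.3 to 532 CPM in the other libraries, and the part of muscle in the results was not tested. In bulk RNA fewer dividing cells and less of a transcript per cell cannot be told apart.

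Outside that library the genes varied little. Dividing the highest by the lowest of the other 19 libraries gave a fold of 1.47 (Rrm1) to 3.12 (Ccne2), with a median of 1.72 and a value under 2 for 40 of the 42 genes. Over all 20 libraries the median fold was 2.56, and Kif20a, a kinesin of the midzone, had the widest, at 3.72. The mean log2(CPM + 0.1) over a set of genes is called its level here. The S phase level lay between 5.96 and 6.52 in the 19 libraries and was 5.35 in library B of the depleted combination. The mitosis level lay between 6.37 and 7.02 in the 19 and was 5.70 in that library. The highest S phase level was that of APG-157 A and the highest mitosis level that of anti-CD8 A, while library B of the same groups had 5.99 (S phase, APG-157) and 6.76 (mitosis, anti-CD8).

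**Figure D1:**
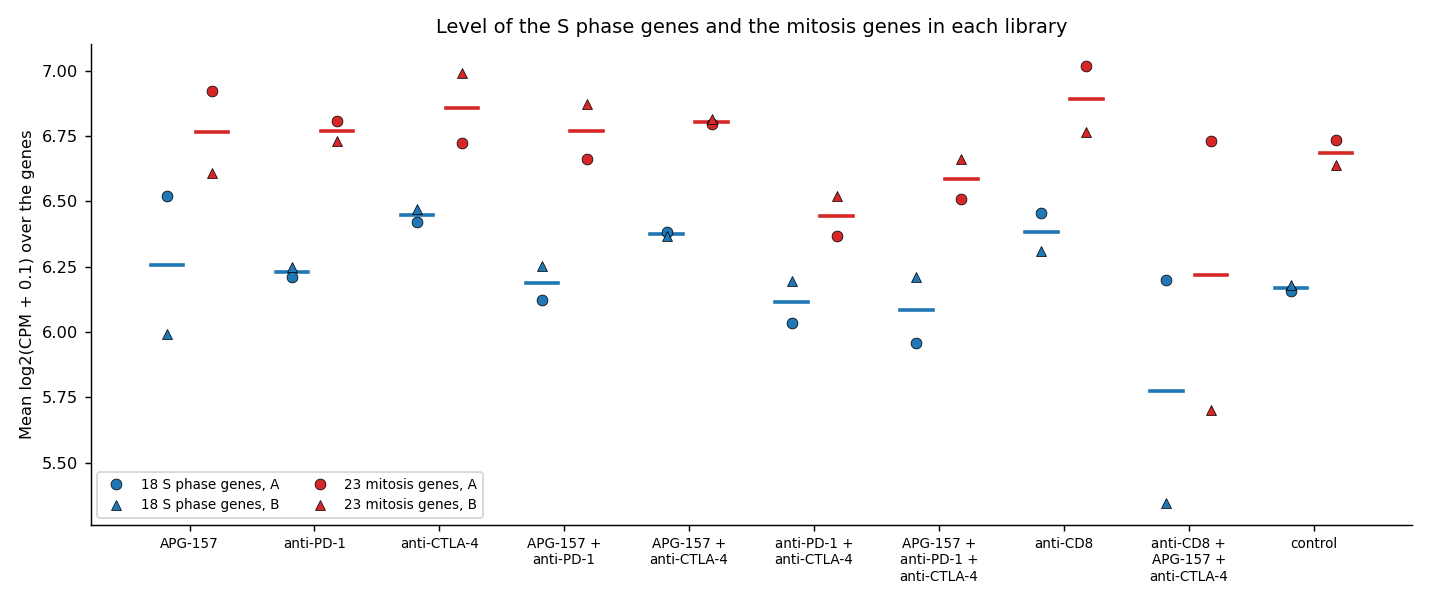
Mean log2(CPM + 0.1) of the 18 S phase genes (blue) and the 23 mitosis genes (red) in each library, by group; circles are A, triangles are B and bars are the mean of both. Library B of the depleted combination is lowest, at 5.35 and 5.70, and the other 19 libraries span 0.56 (S phase) and 0.65 (mitosis).

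By group the mean mitosis level was 6.89 in anti-CD8, 6.86 in anti-CTLA-4, 6.80 in the combination, 6.77 in anti-PD-1, 6.77 in APG-157 + anti-PD-1, 6.77 in APG-157, 6.59 in the triple treatment, 6.44 in the antibody pair, 6.22 in the depleted combination and 6.69 in control. The pooled SD of this level between A and B was 0.26. Without library B of the depleted combination that SD was 0.14, and the SD of the means of the other 9 groups, each over 2 libraries, was also 0.14. For the S phase level the matching values were 0.15 within groups and 0.13 between the means of the 9 groups.

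Mki67, the proliferation antigen, had 482 and 413 CPM in APG-157, 523 and 455 CPM in anti-PD-1, 369.9 and 581 CPM in anti-CTLA-4 and 411 and 543 CPM in APG-157 + anti-PD-1. It had 555 and 575 CPM in the combination, 369 and 374 CPM in the antibody pair, 405 and 489 CPM in the triple treatment and 533 and 460.2 CPM in anti-CD8. Mki67 was at 438 and 226 CPM in the depleted combination and 488 and 377 CPM in control. Both libraries of the combination lay above both controls and both of the antibody pair below them, whereas those of anti-CTLA-4 lay on either side.

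Top2a, the topoisomerase that untangles sister chromosomes, had 587 and 341 CPM in APG-157, 561 and 418 CPM in anti-PD-1, 504 and 421 CPM in anti-CTLA-4 and 429 and 486 CPM in APG-157 + anti-PD-1. It had 519 and 552 CPM in the combination, 431 and 405 CPM in the antibody pair, 409 and 458 CPM in the triple treatment and 580.1 and 445 CPM in anti-CD8. Top2a was at 442 and 231 CPM in the depleted combination and 442 and 364 CPM in control. The highest value was in APG-157 A, whose partner B was lower than every library but 1, and both libraries of the combination and of anti-CD8 lay above both controls.

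Ccnb1, cyclin B1, had 125 and 98.4 CPM in APG-157, 111 and 104 CPM in anti-PD-1, 89.7 and 135 CPM in anti-CTLA-4 and 101 and 122 CPM in APG-157 + anti-PD-1. It had 112 and 112 CPM in the combination, 80.4 and 82.7 CPM in the antibody pair, 83.3 and 98.4 CPM in the triple treatment and 132 and 103 CPM in anti-CD8. Ccnb1 was at 99.9 and 41.6 CPM in the depleted combination and 107 and 98.9 CPM in control. The antibody pair and the triple treatment lay below both controls with both libraries, and the combination above both.

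Cdk1, the kinase bound by cyclin B1, had 179 and 158 CPM in APG-157, 155 and 172 CPM in anti-PD-1, 195 and 241 CPM in anti-CTLA-4 and 161 and 162 CPM in APG-157 + anti-PD-1. It had 162 and 163 CPM in the combination, 135 and 157 CPM in the antibody pair, 144 and 162 CPM in the triple treatment and 183 and 169.6 CPM in anti-CD8. Cdk1 was at 163 and 88.2 CPM in the depleted combination and 149.9 and 178 CPM in control. Both anti-CTLA-4 libraries were above both controls, and those of the combination lay between the controls.

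Mcm2, a helicase subunit, had 142 and 93.3 CPM in APG-157, 107 and 112 CPM in anti-PD-1, 119 and 136 CPM in anti-CTLA-4 and 101 and 109 CPM in APG-157 + anti-PD-1. It had 132 and 129 CPM in the combination, 104 and 102 CPM in the antibody pair, 87.9 and 107 CPM in the triple treatment and 133 and 117 CPM in anti-CD8. Mcm2 was at 110.5 and 58.1 CPM in the depleted combination and 115 and 102 CPM in control. The APG-157 libraries held the highest value of all and a value below both controls, and anti-CTLA-4, the combination and anti-CD8 lay above both controls with both libraries.

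Rrm2, the regulated subunit of ribonucleotide reductase, had 179 and 110.2 CPM in APG-157, 136 and 141 CPM in anti-PD-1, 168 and 172 CPM in anti-CTLA-4 and 135 and 148 CPM in APG-157 + anti-PD-1. It had 144 and 151 CPM in the combination, 109 and 143 CPM in the antibody pair, 119 and 137 CPM in the triple treatment and 173 and 146 CPM in anti-CD8. Rrm2 was at 136 and 69.7 CPM in the depleted combination and 128 and 143 CPM in control. Both libraries of anti-CTLA-4, of the combination and of anti-CD8 lay above both controls.

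Ccne1, cyclin E1, had 21.0 and 14.1 CPM in APG-157, 16.0 and 17.0 CPM in anti-PD-1, 22.7 and 24.2 CPM in anti-CTLA-4 and 17.3 and 17.4 CPM in APG-157 + anti-PD-1. It had 20.6 and 21.1 CPM in the combination, 13.6 and 20.9 CPM in the antibody pair, 16.3 and 18.1 CPM in the triple treatment and 21.9 and 16.9 CPM in anti-CD8. Ccne1 was at 17.1 and 9.37 CPM in the depleted combination and 15.3 and 16.7 CPM in control. Both libraries of anti-CTLA-4, of APG-157 + anti-PD-1, of the combination and of anti-CD8 lay above both controls, and those of the antibody pair on either side.

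Ccnd1, cyclin D1, had 946 and 621 CPM in APG-157, 754 and 724 CPM in anti-PD-1, 929 and 991 CPM in anti-CTLA-4 and 784 and 898 CPM in APG-157 + anti-PD-1. It had 1098 and 1066 CPM in the combination, 758 and 924 CPM in the antibody pair, 800.1 and 869 CPM in the triple treatment and 741 and 724 CPM in anti-CD8. Ccnd1 was at 648 and 379 CPM in the depleted combination and 698 and 680.1 CPM in control. The highest values of the series were those of the combination, and in every treated group except APG-157, whose libraries lay on either side, and the depleted combination, which lay below, both libraries were above both controls.

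**Figure D2:**
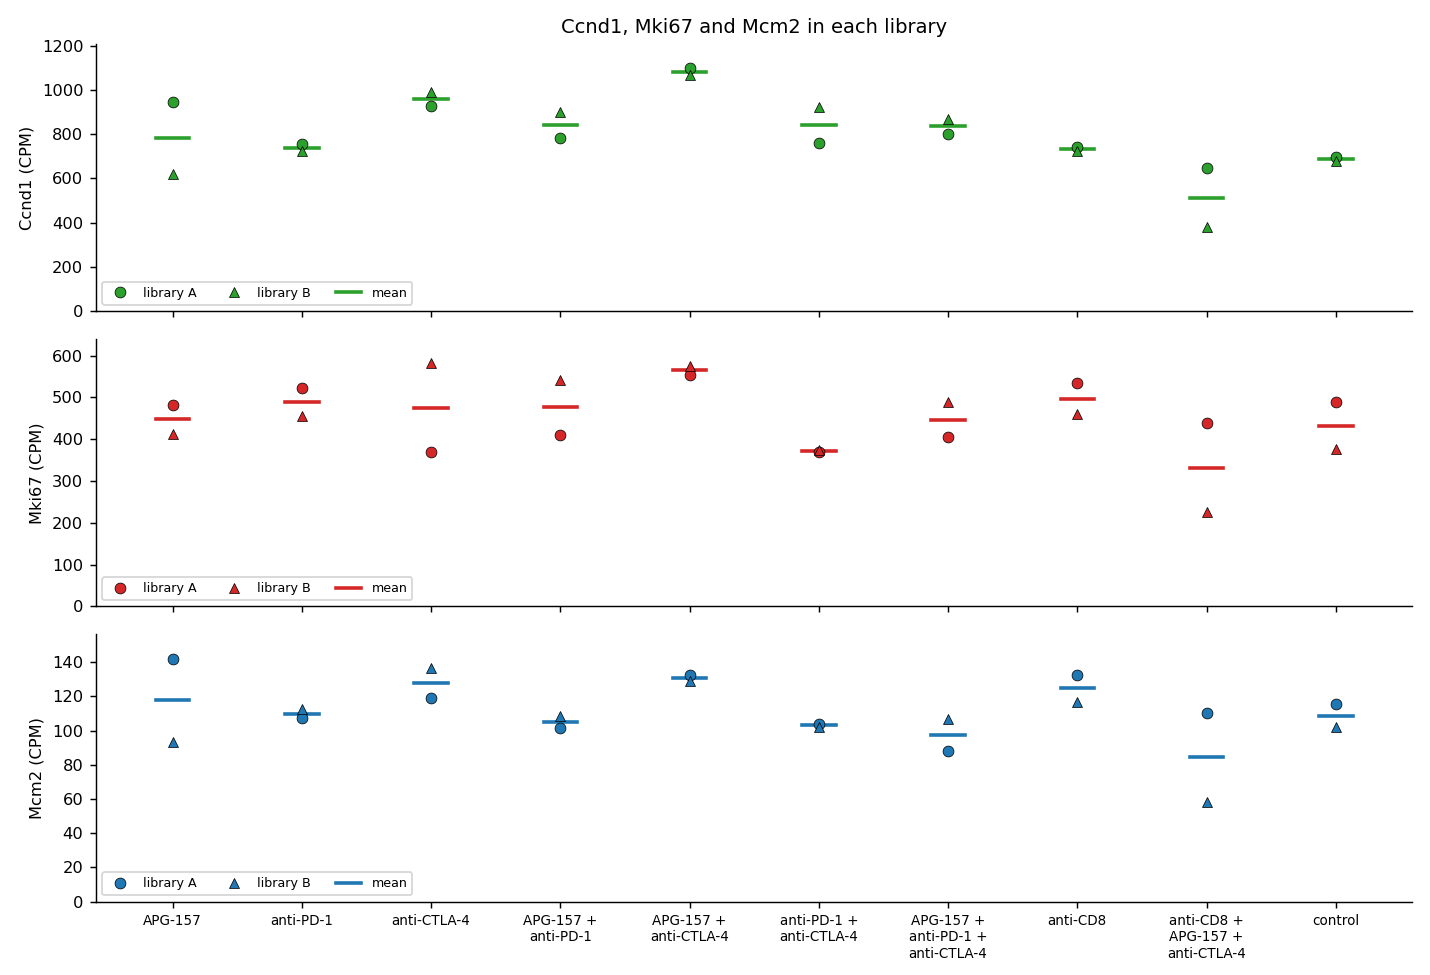
CPM of Ccnd1, Mki67 and Mcm2 in each library, by group; circles are A, triangles are B, bars are the mean of both and each axis starts at 0. Ccnd1 is highest in the libraries of the combination (1098 and 1066 CPM), with 698 and 680.1 CPM in control.

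In the 9 comparisons with control, which share the 2 control libraries, 0 of the 42 genes were called at an adjusted p under 0.05 by edgeR, and 0 by DESeq2. Of all 19567 genes, edgeR called 0.0204% in the combination, 0.0102% in the depleted combination and 0% in each of the other 7. Shares of all genes given for DESeq2, here and below, count only genes with an adjusted p after its own filter (14256 to 19567 by comparison). DESeq2 called 0.0358% of these in APG-157, 0.0102% in anti-PD-1, 0.117% in anti-CTLA-4 and 0.0204% in APG-157 + anti-PD-1. It called 2.21% in the combination, 0.467% in the antibody pair, 0.114% in the triple treatment, 0.0307% in anti-CD8 and 6.90% in the depleted combination. The median 95% interval of the 42 genes reached 0.54 on the log2 scale to either side. It lay within a 2-fold change in both directions for 32 of the 42 genes in the depleted combination, the fewest of the 9 comparisons, and for at most 41 in the others.

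At an unadjusted p under 0.05, the counts were 0 of 42 in APG-157 (0.761% of all genes), 0 in anti-PD-1 (0.618%), 1 higher in anti-CTLA-4 (6.45%), 0 in APG-157 + anti-PD-1 (2.43%), 1 higher in the combination (11.1%), 0 in the antibody pair (6.04%), 1 lower in the triple treatment (4.48%), 0 in anti-CD8 (1.19%) and 3 lower in the depleted combination (19.1%). In none of them did the 42 genes pass more often than all genes. In anti-CTLA-4 the gene was E2f1, with 47.2 and 40.4 CPM in anti-CTLA-4 and 30.9 and 35.9 CPM in control, a log2 difference of 0.39 ± 0.18 (SE, adjusted p = 0.77). In the triple treatment it was Gins2, with 12.9 and 17.2 CPM in the triple treatment and 19.2 and 21.7 CPM in control, a log2 difference of -0.44 ± 0.19 (SE, adjusted p = 0.94). The groups did not overlap for either gene.

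The median log2 difference from control over the 42 genes was 0.09 in APG-157, 0.06 in anti-PD-1, 0.22 in anti-CTLA-4, 0.06 in APG-157 + anti-PD-1, 0.17 in the combination, -0.16 in the antibody pair, -0.11 in the triple treatment, 0.21 in anti-CD8 and -0.38 in the depleted combination. Over all genes tested the same medians lay between -0.04 and 0.03. The pooled SD of the mean level of the 42 genes between A and B was 0.25, or 0.14 without library B of the depleted combination. Of the groups without that library, anti-CTLA-4 and anti-CD8 lay farthest above control and the antibody pair farthest below.

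**Figure D3:**
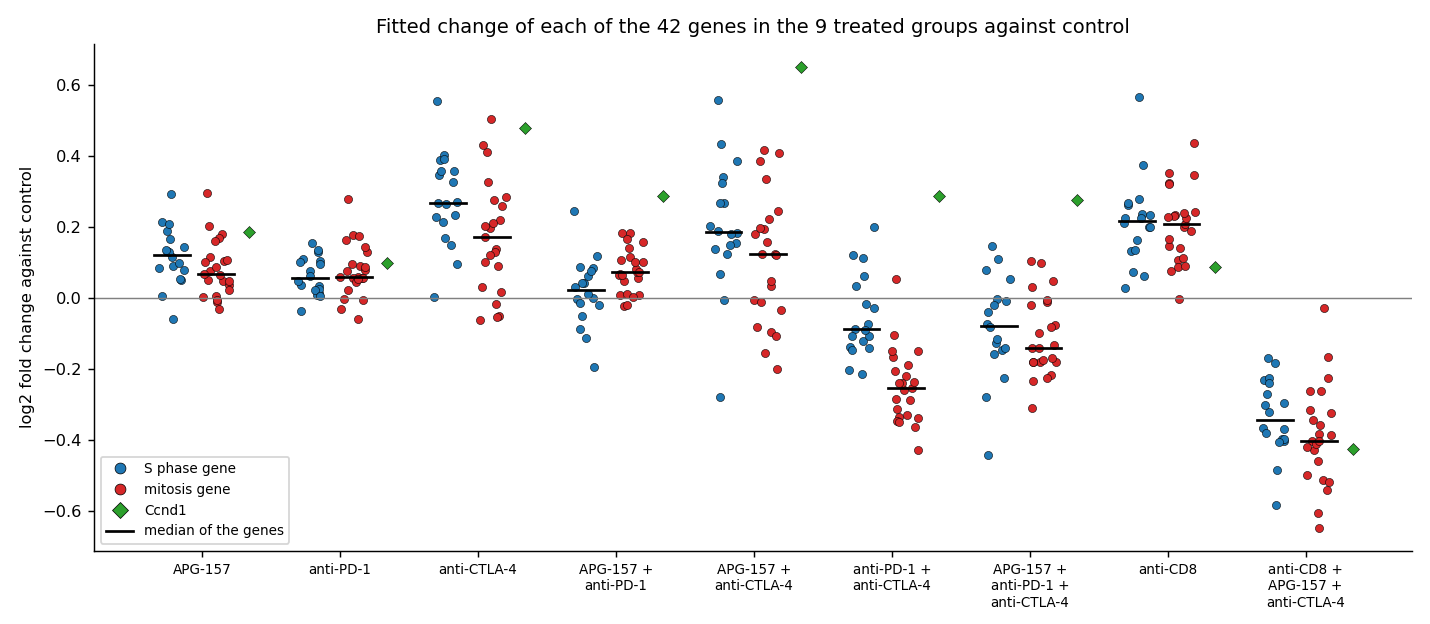
Fitted log2 fold change of each of the 42 genes in each treated group against control; blue points are S phase genes, red points mitosis genes, green diamonds Ccnd1, and black bars medians. No gene was called; Ccnd1 in the combination is the highest point, at 0.65, and all points of the depleted combination lie below 0.

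Ccnd1 averaged 1082 ± 22.1 CPM in the combination and 689 ± 12.8 CPM in control (n = 2 each, ± SD). Its log2 difference was 0.65 ± 0.23 (SE, adjusted p = 0.37), with a 95% interval of 0.16 to 1.14. Fitted on these 2 groups alone it passed the threshold, at 0.63 (adjusted p = 0.036), as did 713 of all genes. Ccne2, cyclin E2, was next at 0.56 ± 0.45 (SE, adjusted p = 0.65), with 34.1 and 35.8 CPM in the combination and 26.8 and 20.7 CPM in control. The lowest were Tyms, thymidylate synthase, at -0.28 ± 0.21 (SE, adjusted p = 0.62), with 56.2 and 56.0 CPM in the combination against 61.9 and 74.3 CPM in control, and Cdc20, an activator of the ubiquitin ligase that ends mitosis, at -0.20 ± 0.24 (SE, adjusted p = 0.77), with 74.6 and 70.2 CPM in the combination against 78.8 and 87.4 CPM in control. Both libraries of the combination lay above both controls for 25 of the 42 genes (28.8% of all genes) and below both for 4 (28.8% of all genes). Other cells differed as well. The 12 fibroblast markers summed to 3211 and 3062 CPM in the combination against 5967 and 5284 CPM in control, and the 9 endothelial markers to 108 and 110.1 CPM in the combination against 184 and 232 CPM in control. The 12 macrophage markers summed to 6828 and 6634 CPM in the combination against 7023 and 8413 CPM in control and the 9 B and plasma cell markers to 61.5 and 64.7 CPM in the combination against 100.3 and 108 CPM in control, with no marker of these lists at 0 in both libraries of either group. Other lists went the other way. The 14 T cell markers summed to 106 and 105 CPM in the combination against 69.8 and 99.5 CPM in control. The 13 epithelial markers summed to 2381 and 2319 CPM in the combination against 1996 and 2180 CPM in control. The epithelial level overlapped, however, at 1.24 and 1.02 in the combination against 1.32 and 1.07 in control. The part of all these cells in the 25 genes was not tested.

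Libraries A and B of the combination were far closer to each other than those of any other group. Over all genes the edgeR estimate of the variation between libraries (BCV) came to 4.23% for this pair and to between 20.9% and 68.3% for the pairs of the other 9 groups. The gene of the 42 that differed most between them, Gins2, did so by 0.15 on the log2 scale, against 0.41 to 1.64 for the most different gene of each other pair. Their counts still differed by more than sampling noise, with a mean chi-square of 11.2 per gene over all genes and 6.47 over the 42, and they were counted as 2 libraries. Separate preparations of 1 tumor can exceed that noise too, so whether A and B of the combination came from separate tumors is not known. With both summed as 1 sample, 0 of the 42 genes were called in each comparison of this group. The share of all genes called in that fit is not given here, so this count is not particular to the 42.

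In anti-CTLA-4 alone both libraries lay above both controls for 24 of the 42 genes (18.2% of all genes) and below both for 0 (15.1% of all genes). The S phase level was 6.42 and 6.47 in anti-CTLA-4 against 6.16 and 6.18 in control, without overlap, and the mitosis level 6.72 and 6.99 in anti-CTLA-4 against 6.73 and 6.64 in control, with 1 anti-CTLA-4 library below the higher control. The pair differed in T cell content, as 14 T cell markers summed to 298 and 74.8 CPM in anti-CTLA-4 and 69.8 and 99.5 CPM in control. They also differed in muscle, as the 16 muscle markers summed to 25.3 and 2584 CPM in anti-CTLA-4 and 88.1 and 132 CPM in control. The part of these differences in the levels was not tested.

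In the antibody pair the mitosis level was the lowest of the groups without anti-CD8. Both libraries lay below both controls for 20 of the 42 genes (20.3% of all genes) and above both for 3 (18.8% of all genes). The fitted difference was negative for 22 of 23 mitosis genes (median -0.25) and for 13 of 18 S phase genes (median -0.09). Bub1b, a checkpoint protein, had 73.0 and 79.1 CPM in the antibody pair against 112 and 92.2 CPM in control, a log2 difference of -0.43 ± 0.30 (SE, adjusted p = 0.95). Kif20a had 73.4 and 74.6 CPM in the antibody pair against 113 and 77.6 CPM in control, a log2 difference of -0.36 ± 0.34 (SE, adjusted p = 0.97). At the other end stood Ccnd1, at 0.29 ± 0.22 (SE, adjusted p = 0.96), and E2f1, at 0.20 ± 0.18 (SE, adjusted p = 0.96). The 12 macrophage markers summed to 10150 and 8856 CPM in the antibody pair against 7023 and 8413 CPM in control and the 14 T cell markers to 284 and 427 CPM in the antibody pair against 69.8 and 99.5 CPM in control, with no marker of either list at 0 in these groups. The macrophage level overlapped, however, at 8.60 and 8.42 in the antibody pair against 8.24 and 8.48 in control. The part of macrophages and T cells in the lower mitosis level was not tested.

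The 8 groups without anti-CD8 make a full factorial of the drug and the checkpoint antibodies, in which 8 libraries with an agent are set against 8 without it. Intervals were narrowest here, with a median of 0.27 to either side, and for all 42 genes and each of the 3 agents they lay within a 2-fold change in both directions. With APG-157 the median log2 difference was 0.01, and 24 of 42 were positive. None of the 42 was called by edgeR (0% of all genes) or DESeq2 (0.0409%), and 0 were at an unadjusted p under 0.05 (7.36% of all genes). The outermost bounds were -0.43 (Birc5) and 0.69 (Ccne2).

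With anti-PD-1 all 42 differences were negative, from -0.22 (Mcm2) to -0.05 (Top2a), with a median of -0.15 against -0.02 over all genes. None of the 42 was called by edgeR (0% of all genes) or DESeq2 (0.843%), and 0 were at an unadjusted p under 0.05 (8.77% of all genes). Mcm2 averaged 104 ± 7.36 CPM with anti-PD-1 and 121 ± 17.1 CPM without it (SD, n = 8 each), a difference of -0.22 ± 0.12 (SE, adjusted p = 0.59) about as large as the spread without it. The 42 differences averaged over unlike backgrounds. Anti-PD-1 alone against control was positive for 37 of the 42 (median 0.06). The mean level of the 42 was 6.605 in anti-PD-1 against 6.53 in control, and 6.589 in APG-157 + anti-PD-1 against 6.615 in APG-157. It was 6.38 in the antibody pair against 6.755 in anti-CTLA-4, and 6.445 in the triple treatment against 6.699 in the combination. With anti-CTLA-4, 12 of 18 S phase genes were positive (median 0.03) and 3 of 23 mitosis genes (median -0.06). Again edgeR called 0 of the 42 (0.250% of all genes) and DESeq2 0 (3.23%), and 2 were higher at an unadjusted p under 0.05 (10.1% of all genes). These were Ccnd1, which averaged 929.5 ± 119.8 CPM with anti-CTLA-4 and 763 ± 110.2 CPM without it (SD, n = 8 each) and differed by 0.28 ± 0.11 (SE, adjusted p = 0.39), and E2f1, which differed by 0.21 ± 0.09 (SE, adjusted p = 0.45).

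Between the combination and anti-CTLA-4 alone the 42 genes had a median log2 difference of -0.02, and 19 were positive. None was called by edgeR (0.00511% of all genes), 2 were lower at an unadjusted p under 0.05 (23.6% of all genes), and DESeq2 called 1, Tyms (17.3% of all genes). Tyms had 56.2 and 56.0 CPM in the combination and 81.2 and 91.9 CPM in anti-CTLA-4, a log2 difference of -0.62 ± 0.21 (SE, adjusted p = 0.1). Birc5, survivin, had 79.7 and 77.6 CPM in the combination and 125 and 123 CPM in anti-CTLA-4, a log2 difference of -0.66 ± 0.25 (SE, adjusted p = 0.14). The groups did not overlap for either gene. Both passed when only these groups were fitted, as did 2438 of all genes, and Tyms passed, at -0.63, with library B of the depleted combination left out of the fit, as did 1148 of all genes. The interaction of the 2 agents asks whether the combination differed from the sum of APG-157 and anti-CTLA-4. None of the 42 was called there by edgeR (0.00511% of all genes) or DESeq2 (0.715%), and 1, Tyms at -0.71 ± 0.29 (SE, adjusted p = 0.46), was at an unadjusted p under 0.05 (10.1% of all genes).

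The only genes of the 42 that edgeR called in any comparison were Ccnd1, E2f8 and Foxm1, all lower in the depleted combination than in the combination. That is 3 of 42 genes, where 19.0% of all genes were called and 8.18% of all genes were called lower. DESeq2 called 9 of the 42 there (29.4% of all genes). At an unadjusted p under 0.05, 18 were lower and 0 higher (38.3% of all genes in either direction). Ccnd1 had 648 and 379 CPM in the depleted combination against 1098 and 1066 CPM in the combination, a log2 difference of -1.07 ± 0.23 (SE, adjusted p = 0.025). E2f8, which represses E2F targets, had 47.2 and 27.6 CPM in the depleted combination against 71.3 and 68.9 CPM in the combination, a log2 difference of -0.91 ± 0.26 (SE, adjusted p = 0.034). Foxm1, an activator of mitosis genes, had 95.2 and 49.8 CPM in the depleted combination against 133 and 128 CPM in the combination, a log2 difference of -0.85 ± 0.22 (SE, adjusted p = 0.03). Both libraries of the depleted combination lay below both of the combination for 30 of the 42 genes (31.1% of all genes) and above both for 0 (32.6% of all genes).

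Most of this difference lay in library B, the one rich in adipocyte transcripts. With both libraries the median log2 difference of the 42 genes was -0.55, against 0.09 over all genes, and 41 were negative. Without B the median was -0.13, with 33 of 42 negative, 0 called by edgeR (0.0394% of all genes), and 4 at an unadjusted p under 0.05 (14.9% of all genes), 3 of them lower. Without A it was -1.15, with 42 of 42 negative and 39 called (40.7% of all genes, 8939 in number). Without B, Ccnd1 stood at -0.74, E2f8 at -0.57 and Foxm1 at -0.46, none past the threshold. Leaving out library A or library B of the combination also gave 0 called, with 2 of all genes called each time. Against control the depleted combination had a median of -0.38 with both libraries, of 0.025 without B, and of -0.98 without A. There 0 were called with both, 0 without B (0.00985% of all genes) and 39 without A (30.2% of all genes, 6632 in number). The 3 genes lower there at an unadjusted p under 0.05 were Aurkb at -0.65 ± 0.26 (SE, adjusted p = 0.21), Foxm1 at -0.60 ± 0.22 (SE, adjusted p = 0.19) and E2f8 at -0.58 ± 0.25 (SE, adjusted p = 0.24). Aurkb, a kinase of chromosome segregation, had 51.3 and 24.1 CPM in the depleted combination and 57.5 and 60.6 CPM in control. In library B, 7 of 13 epithelial, 5 of 9 endothelial and 3 of 12 fibroblast markers were also higher than in any other library, and the 12 macrophage markers were at their lowest sum, 3634 CPM. The part of these cells in the lower levels was not tested.

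**Figure D4:**
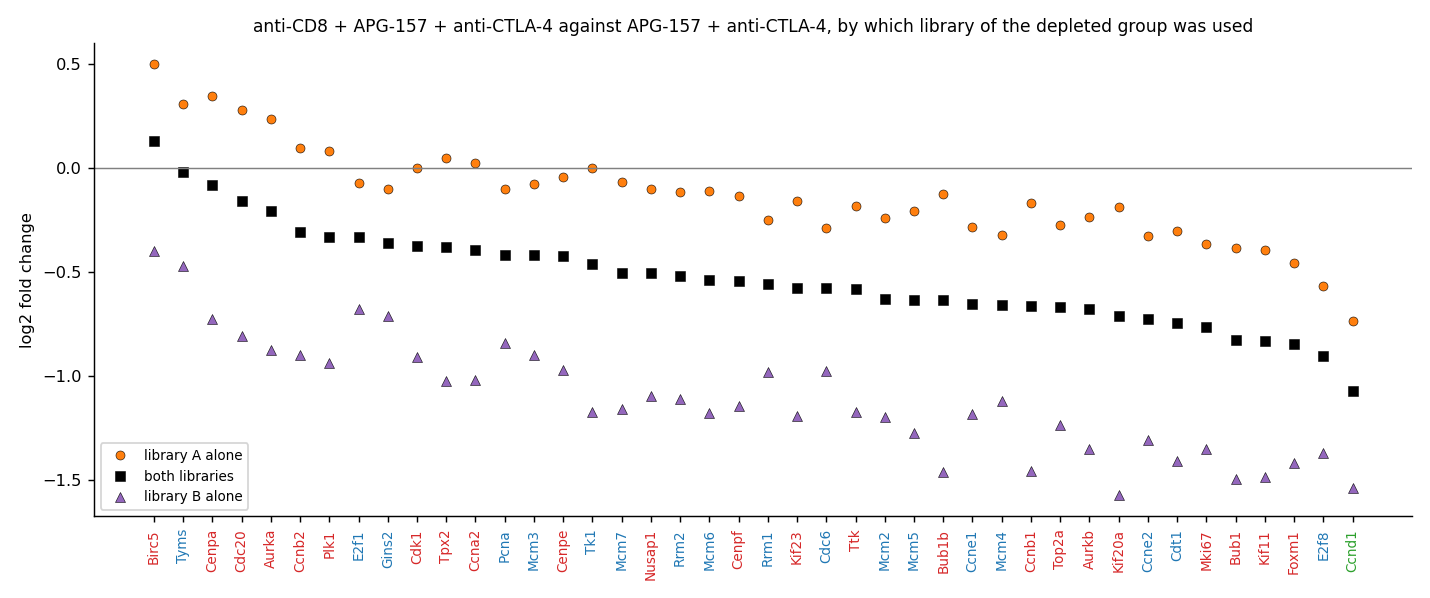
Log2 fold change of each of the 42 genes in the depleted combination against the combination, fitted with library A alone (circles), both libraries (squares) and library B alone (triangles) of the depleted group; gene names are blue for S phase, red for mitosis and green for Ccnd1. The medians are -0.13, -0.55 and -1.15, and Ccnd1 is the lowest gene with both libraries, at -1.07.

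In anti-CD8 alone 41 of 42 fitted differences from control were positive. The S phase level was 6.46 and 6.31 in anti-CD8 against 6.16 and 6.18 in control, and the mitosis level 7.02 and 6.76 in anti-CD8 against 6.73 and 6.64 in control. Neither level overlapped control, and no gene was past the threshold. The 14 T cell markers summed to 31.4 and 44.2 CPM in anti-CD8 against 69.8 and 99.5 CPM in control, and the 9 B and plasma cell markers to 38.5 and 48.8 CPM in anti-CD8 against 100.3 and 108 CPM in control, both without overlap. The macrophage level was 7.73 and 8.08 in anti-CD8 against 8.24 and 8.48 in control. The summed macrophage markers overlapped, however, at 4791 and 7135 CPM in anti-CD8 against 7023 and 8413 CPM in control. The neutrophil level was 0.44 and 0.46 in anti-CD8 against 0.50 and 1.65 in control. Summed, the 8 neutrophil markers overlapped as well, at 217 and 194 CPM in anti-CD8 against 198 and 166 CPM in control. Of these 8 markers, 1 had 0 counts in both anti-CD8 libraries. The part of these cells in the higher levels was not tested.

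The S phase level minus the mitosis level was taken within each library. It lay between -0.62 in APG-157 + anti-PD-1 B and -0.30 in anti-CTLA-4 A, with a median of -0.47. It was -0.33 and -0.33 in the antibody pair against -0.58 and -0.46 in control, without overlap, and -0.53 and -0.35 in the depleted combination. The pooled SD within groups was 0.10 and the SD of the group means, each over 2 libraries, 0.07.

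Other genes of the same processes, from lists that share none of the 42, had similar levels over the libraries but differed from the 42 in some comparisons. Over 20 libraries that share tumor content and depth, the S phase level had a Spearman rho of 0.97 with the level of 39 other replication genes, and the mitosis level one of 0.96 with that of 46 other mitosis genes (0.965 and 0.95 without library B of the depleted combination). In the 9 comparisons with control none of these genes and none of 36 regulators tested was called. In anti-CTLA-4 against control, 9 of the 39 replication genes were higher and 0 lower at an unadjusted p under 0.05 (6.45% of all genes). Of the 42 it was 1. Between the combination and anti-CTLA-4 the replication genes had a median of -0.21 with 7 positive. There the median was -0.08 over the 18 S phase genes, with 6 positive, and -0.02 over the 42. In the combination the median log2 difference from control was 0.11 over the replication genes (31 positive), 0.06 over the mitosis genes (27 positive) and 0.24 over the regulators (25 positive). At the ends of the replication list stood Pole, of DNA polymerase epsilon (0.63), and Brca1 (0.53) against Rfc2, of the clamp loader (-0.30), and Gins4 (-0.20). At the ends of the mitosis list stood Anln, of the cleavage furrow (0.58), and Knl1, of the kinetochore (0.56), against Spc24 (-0.70) and Cenpm (-0.31). Among regulators Cdkn2a (1.81) and E2f2 (1.06) were highest and Mycn (-1.02) and Cdkn1c (-0.77) lowest. In the antibody pair 1 of the 46 other mitosis genes was positive (median -0.20), and 16 of the 39 replication genes were (median -0.03). With anti-PD-1 in the factorial 0 of the 46 and 0 of the 39 were positive, although in anti-PD-1 alone against control 33 and 29 of them were.

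Between the depleted combination and the combination, 4 of the 39 replication genes were called lower (Pole -0.96, Pola1 -0.98, Clspn -0.74 and Cdc45 -0.64), as were 3 of the 46 mitosis genes (Anln -1.14, Cenpi -0.90 and Kif4 -0.76). Of 36 regulators 12 were called lower, among them Rbl1 (-1.07), Cdk6 (-0.93), E2f2 (-1.15) and Mybl2 (-0.77), and Mycn was called higher (2.61). Of all genes 19.0% were called in this comparison, and 8.18% were called lower. Cdkn1a, the inhibitor p21, had 125 and 103 CPM in the depleted combination against 234 and 217 CPM in the combination, a log2 difference of -0.98 ± 0.25 (SE, adjusted p = 0.029). Rb1, the retinoblastoma gene, had 51.6 and 45.1 CPM in the depleted combination against 69.5 and 77.1 CPM in the combination, a log2 difference of -0.60 ± 0.16 (SE, adjusted p = 0.03). Myc had 86.2 and 53.0 CPM in the depleted combination against 117 and 112 CPM in the combination, a log2 difference of -0.72 ± 0.22 (SE, adjusted p = 0.044).

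With 1 library left in the depleted group, these calls were lost without library B as well. Without it 0 of the 39 replication genes, 0 of the 46 mitosis genes and 0 of the 36 regulators were called, and 1, 3 and 11 of them were at an unadjusted p under 0.05 (14.9% of all genes). Their medians were then -0.03, -0.02 and -0.26, against -0.34, -0.43 and -0.45 with both libraries. Without B, Pole stood at -0.64, Pola1 at -0.61, Clspn at -0.39 and Cdc45 at -0.33. Anln stood at -0.66, Cenpi at -0.47 and Kif4 at -0.38. Among regulators Rbl1 stood at -0.81, Cdk6 at -0.63, E2f2 at -0.80, Mybl2 at -0.38, Cdkn1a at -0.85, Rb1 at -0.51 and Myc at -0.41. All 12 regulators called lower with both libraries stayed negative without B. For Ccnd2 the difference was -0.76 without B against -0.77 with both. Whether the lost calls came from what B held or from having fewer libraries was not tested. Mycn, at 0.96 without B, had 3.05 and 16.2 CPM in the depleted combination against at most 1.65 CPM in the combination, so its higher level lay mostly in B. Without A, 31, 39 and 28 genes of the 3 lists were called (40.7% of all genes). Over all libraries Cdkn2a was between 0.17 and 1.33 CPM, and Cdk4 between 179 and 334 CPM, lowest in library B of the depleted combination.

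The 42 genes varied together. Over 20 libraries the mean Pearson r of log2(CPM + 0.1) was 0.80 between S phase genes, 0.82 between mitosis genes and 0.765 between the phases, and without library B of the depleted combination these means were 0.63, 0.63 and 0.52. Ccnd1 stood further off, with a mean r over the 19 libraries of 0.45 to S phase genes and 0.24 to mitosis genes. Of 19566 other genes the most like Mki67 over 20 libraries were Prr11, Ticrr, Plk4, Hmmr and Trim59 (r from 0.96 to 0.94). Those most like Mcm2 were Uhrf1, Mcm5, Uba2, Mms22l and 4930579G24Rik (0.98 to 0.95), and those most like Ccnd1 were Ywhag, Rab21, Cdv3, Itpripl2 and Fam111a (0.97 to 0.93). Without library B of the depleted combination the r of the same genes was 0.93 to 0.88 for Mki67, 0.95 to 0.89 for Mcm2 and 0.95 to 0.84 for Ccnd1, and they held places 1 to 27, 1 to 10 and 1 to 11 among the genes most like each. Over the 19 libraries the mitosis level ran against the levels of macrophage (rho -0.74), neutrophil (-0.71), T cell (-0.60) and B and plasma cell markers (-0.60). For the S phase level the values were -0.73, -0.68, -0.395 and -0.62. Markers of cells other than immune cells did so too. Endothelial markers had -0.50 with the mitosis level and -0.61 with the S phase level, and fibroblast markers -0.33 and -0.53. Epithelial markers had 0.09 and -0.125. These values describe libraries that share depth and tumor content and carry no test.

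Part of the scatter between A and B followed the length of the transcript. In control, A minus B on the log2 scale was 0.37 for Mki67 (10061 bases), 0.31 for Cenpf (11130 bases) and 0.63 for Kif11 (4819 bases), and was -0.36 for Cenpa (1466 bases) and -0.61 for Birc5 (3334 bases). Its Spearman rho with length was 0.58 over the 42 genes and 0.615 over 11353 genes. Other pairs had it as well, with a rho over the 42 genes of 0.575 in anti-PD-1, 0.49 in the antibody pair and -0.43 in APG-157 + anti-PD-1. Among comparisons the rho over the 42 genes was largest between the combination and anti-CTLA-4, at 0.57 (0.56 over 11598 genes), where Tyms and Birc5 were lowest. With a trend on length taken out of each library, 0 of the 42 were called there, as without the trend taken out. Their median was then -0.10, and Tyms stood at -0.67 and Birc5 at -0.73. With the trend taken out 3 were at an unadjusted p under 0.05, against 2 without. The share of all genes in that fit is not given here. Lengths are of the longest coding transcript in GENCODE vM21, so they describe the annotation and not the isoforms in these tumors.

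**Figure D5:**
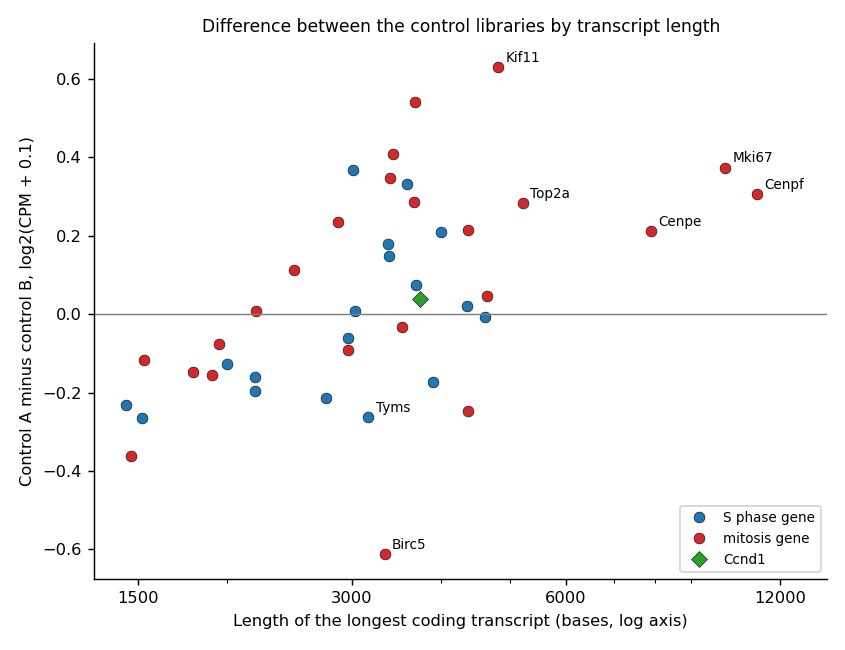
Difference between the control libraries (A minus B, log2(CPM + 0.1)) for each of the 42 genes against the length of its longest coding transcript, on a log axis; blue points are S phase genes, red points mitosis genes and the green diamond Ccnd1. Mki67 and Cenpf, the longest, lie above 0 (0.37 and 0.31), Birc5 is lowest (-0.61), and the Spearman rho is 0.58.

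Some of the genes have near copies in the annotation. Copies of Ccnb1, Ccnb2 and Tyms had at most 4, 15 and 3 counts in any library. Pcna is less certain, since its copy Pcna-ps2 had up to 3868 counts and reads may have been split between them.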

How the data were processed

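RNA of 10 groups of 2 SCCVII tumor libraries was sequenced. The authors trimmed the reads (Trimmomatic 0.39 per the submitters' processing notes), quantified transcripts with Salmon (1.5.0 per those notes) against GENCODE vM27 on GRCm39 and summed them to genes. The deposited values used here are these expected counts, not scaled for depth, and they were rounded to whole numbers. A deposited table of normalized values was not used.

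Of 54309 genes, filterByExpr (minimum count 10, minimum total 15) kept 19567. TMM scaling and a robust quasi-likelihood fit of all 20 libraries were run in edgeR 4.0.16 (R 4.3.3), with 10 residual degrees of freedom. The p-values, from 2-sided tests, were adjusted over all genes tested (Benjamini-Hochberg), with a threshold of 0.05 and no fold minimum. The 15 comparisons set each treated group against control, the combination against anti-CTLA-4 alone and the depleted combination against the combination, besides 3 factorial contrasts and 1 interaction. CPM use TMM library sizes. The code was tested on simulated data.

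The 42 genes, the other lists and the comparisons were chosen with earlier results of these data known. Named by rule were 8 genes given in every library (Mki67, Top2a, Mcm2, Ccnb1, Cdk1, Rrm2, Ccne1 and Ccnd1), genes called or among the highest or lowest of a comparison, the ends of the other lists, the nearest genes by Pearson r, and the regulators Cdkn1a, Cdkn2a, Rb1, Myc and Cdk4. Genes named for an unadjusted p under 0.05, for their range or for their length were chosen after their values were seen. Alternatives were RLE scaling, other filters, DESeq2 1.42.0, a replicate block, fits of the compared groups alone, leaving out libraries, summing the libraries of the combination, a fold minimum, a pseudocount of 1 and, chosen after seeing the data, a trend on transcript length and 1 promoter per gene. Promoter sequences come from RefSeq (GRCm38.p6), a build other than that of the counts.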

Additional observations from a re-analysis of the deposited data

How the results depend on the processing

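With 2 libraries a group, precision is set by the spread between A and B rather than by depth. For the depleted combination against the combination, the count of called genes, 3 as reported, was 9 with DESeq2 (29.4% of all genes), 0 with a log2 fold minimum of 2, 0 with the libraries of the combination summed, and 0 when only the compared groups were fitted. Leaving out 1 library gave counts of 0 to 39 (0.0394% of all genes without library B of the depleted combination and 40.7% without its library A) and medians of -1.15 to -0.13. The length trend, chosen after seeing the data, also called 3, with Cdt1 in place of E2f8. With the trend taken out the median was -0.40 against -0.55, and 10 genes against 18 were at an unadjusted p under 0.05. The log2 differences in the main fit had a Spearman rho with length of -0.38 over the 42 genes and -0.34 over 11598 genes. For the depleted combination against control, leaving out 1 library gave counts of 0 to 39 and medians of -0.98 to 0.025. For the combination against control, fitting only these groups called 1. For the combination against anti-CTLA-4, DESeq2 called 1 (17.3% of all genes), fitting only these groups 2, and leaving out the adipocyte-rich library 1. In the other comparisons every alternative that was run called 0 and moved the median by less than 0.25, the pooled SD between libraries, which is 0.14 without the adipocyte-rich library. Leaving out 1 library still turned the sign of the median in some of them. Its range was -0.07 to 0.29 in APG-157, -0.01 to 0.14 in APG-157 + anti-PD-1 and -0.17 to 0.06 in the triple treatment, each against control, and -0.09 to 0.07 between the combination and anti-CTLA-4. It was -0.03 to 0.08 with APG-157 and -0.08 to 0.02 with anti-CTLA-4 in the factorial, and -0.35 to 0.05 for the interaction. TTTGAA or TTCAAA stood in 33.3% of mitosis promoters before the start, against 72.2% in the whole window, and E2F strings in 12.5% of S phase promoters, against 31.2% in the whole window. Where a group had 1 library left, it was assumed to vary like the others. The other cell cycle genes without library A or B were counted after seeing the data. The cause of these differences was not tested.

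A replicate block by A and B gave 3 called in the depletion comparison and changed no other call. A minus B differences correlated between groups at -0.45 to 0.77 over 45 pairs of groups (median 0.03, 14 over 0.1). The deposited library names number all A libraries before all B libraries, in the same order of groups. Whether A and B were handled as separate sets is not stated, and these correlations cannot decide it.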
